A study of Mus musculus with 8 samples.

Results

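Coding exons that lie away from gene starts and gene ends were examined for DRIP-seq peaks in mouse embryonic fibroblasts (MEFs). A peak was taken when it overlapped by at least 1 bp the coding sequence (CDS) of a protein-coding gene of GENCODE release M21 (mm10) and lay wholly more than 1 kb from every annotated transcript start and every protein-coding gene end. The zinc finger genes named Zfp and a number were left out. The rule used positions alone, and it gave 9784 of 344010 peaks, which merged across lists into 7063 regions in 4328 of the 17409 genes that have such interior CDS. All cells carried floxed Rtel1 alleles (Rtel1F/F) and a doxycycline-inducible WT RNaseH1-GFP transgene (WT RNH1-GFP), and they were infected with GFP adenovirus, which leaves Rtel1 in place, or with Cre-GFP adenovirus, which deletes it. After 48 h they received doxycycline at 2 μg/ml or none (mock) for 48 h, which gave the groups GFP mock and GFP DOX, then Cre mock and Cre DOX. Each group had 1 DRIP library made from pooled immunoprecipitations of these MEFs, and the 4 input libraries were not analysed here. No difference between groups therefore has a replicate error or a test. Intervals are exact Clopper-Pearson intervals at 95% confidence and cover only the counting of peaks, exons or genes.

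R-loops are RNA:DNA hybrids with a displaced single strand of DNA, and they form mostly behind a transcribing polymerase when the nascent RNA pairs again with its template. DRIP recovers them with the S9.6 antibody after the genome is cut with restriction enzymes, so the DNA recovered with a hybrid extends along its fragment. RNaseH1 degrades the RNA of a hybrid, and RTEL1 is a helicase that unwinds G-quadruplexes (G4s) and other DNA structures at telomeres and replication forks. R-loops are best known at promoters and at transcription ends, where G-rich or GC-skewed sequence favours them. Coding exons are short, GC-rich relative to introns, under selection for their protein and almost free of transposon repeats.

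To show what these regions look like, sequence from 7 of them is given below in the direction of the gene, up to 300 bases around the midpoint of the peak, with CDS bases in capitals and all other bases in lower case. Atg4a, Pcsk5 and Muc6 had peaks in all 4 lists. Grik4 and Fndc9 led the regions found in GFP mock or GFP DOX alone. Pik3r5 was present in both mock lists alone and Polr1b in both Cre lists alone. The stretches are on mm10 at chrX:140996949-140997248 (plus strand), chr19:17509950-17510249 (minus), chr7:141638291-141638590 (minus), chr9:42591509-42591628 (minus), chr11:46238008-46238142 (plus), chr11:68490576-68490755 (plus) and chr2:129109307-129109509 (plus), in the order of the lines.
Atg4a: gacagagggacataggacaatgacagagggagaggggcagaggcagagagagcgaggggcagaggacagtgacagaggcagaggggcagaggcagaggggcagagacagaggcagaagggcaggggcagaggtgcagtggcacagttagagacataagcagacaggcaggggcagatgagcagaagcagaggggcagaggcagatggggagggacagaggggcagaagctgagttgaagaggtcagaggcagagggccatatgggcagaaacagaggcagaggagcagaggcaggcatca
Pcsk5: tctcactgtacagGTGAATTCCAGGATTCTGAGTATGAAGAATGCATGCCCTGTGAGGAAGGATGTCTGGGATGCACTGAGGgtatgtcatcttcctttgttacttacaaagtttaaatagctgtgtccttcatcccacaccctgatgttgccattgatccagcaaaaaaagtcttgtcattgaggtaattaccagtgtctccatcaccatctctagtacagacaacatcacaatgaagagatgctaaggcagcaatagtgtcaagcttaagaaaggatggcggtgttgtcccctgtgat
Muc6: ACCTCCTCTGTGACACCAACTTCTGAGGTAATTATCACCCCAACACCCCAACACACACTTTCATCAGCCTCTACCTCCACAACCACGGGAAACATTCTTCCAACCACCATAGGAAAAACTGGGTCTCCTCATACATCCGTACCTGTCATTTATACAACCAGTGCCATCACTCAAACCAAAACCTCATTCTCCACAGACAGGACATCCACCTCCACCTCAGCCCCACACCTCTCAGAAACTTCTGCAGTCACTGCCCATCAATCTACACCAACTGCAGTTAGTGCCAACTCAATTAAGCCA
Grik4: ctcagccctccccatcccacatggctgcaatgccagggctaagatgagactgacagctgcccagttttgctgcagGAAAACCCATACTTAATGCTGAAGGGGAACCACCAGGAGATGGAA
Fndc9: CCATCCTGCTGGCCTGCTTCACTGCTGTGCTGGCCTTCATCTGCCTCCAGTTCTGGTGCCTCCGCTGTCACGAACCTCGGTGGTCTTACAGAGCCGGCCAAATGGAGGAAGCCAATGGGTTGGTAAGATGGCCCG
Pik3r5: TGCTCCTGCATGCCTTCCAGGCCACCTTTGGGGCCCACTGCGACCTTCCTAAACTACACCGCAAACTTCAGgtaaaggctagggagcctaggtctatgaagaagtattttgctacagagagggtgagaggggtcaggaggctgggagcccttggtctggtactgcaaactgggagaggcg
Polr1b: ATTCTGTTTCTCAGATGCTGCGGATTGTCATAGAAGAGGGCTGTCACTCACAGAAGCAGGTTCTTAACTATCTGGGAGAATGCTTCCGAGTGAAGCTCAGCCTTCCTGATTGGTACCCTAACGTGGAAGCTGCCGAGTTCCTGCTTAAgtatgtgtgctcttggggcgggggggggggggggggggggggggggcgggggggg

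The stretch of Atg4a is a purine-rich intronic repeat with GC content of 60.7% and 0 CDS bases in its 300, so the strongest of these regions is centred outside an exon. The stretch of Muc6 is CDS throughout. In Polr1b the capitals end at a splice donor, after which the intron opens into runs of guanines parted by single cytosines. Its highest G4Hunter value, a measure of G-richness and G-skew in windows of 25 bases for which 1.5 or more was taken as a predicted G4, was 4 on the coding strand. In Grik4 and Fndc9 the highest values on the coding strand were 0.72 and 0.76, under that limit.

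The number of peaks over interior coding exons was highest in Rtel1-deleted cells without doxycycline. Cre mock had 3767 and Cre DOX 1999, whereas GFP mock had 2166 and GFP DOX 1852. Cre mock thus held 1.74 times as many as GFP mock, whereas with doxycycline Cre held 1.08 times as many as GFP. The latter ratio fell below 1 among top-decile peaks (0.680), with the peak midpoint in CDS (0.877) and with at least 50% CDS (0.704). Doxycycline went with 0.855 times as many peaks in GFP cells and 0.531 times as many in Cre cells. The lists themselves did not follow this order, as they had 87613 peaks in GFP mock and 60219 in GFP DOX, but 91097 in Cre mock and, the most, 105081 in Cre DOX. Values for the 4 lists are given below in this order where no list is named. Interior coding exons accordingly took 2.47% (2.37 to 2.58) of GFP mock and 3.08% (2.94 to 3.22) of GFP DOX, then 4.14% (4.01 to 4.27) of Cre mock, but 1.90% (1.82 to 1.99) of Cre DOX. Cre mock also had the highest share in the other genic classes. Peaks within 1 kb of a transcript start numbered 11241, 9226, 14503 and 10549 and took 12.8%, 15.3%, 15.9% and 10.04% of the lists, and peaks within 1 kb of a gene end alone took 1.64%, 2.38%, 2.69% and 1.71%. Other interior exon peaks, without CDS or partly genic, took 0.831%, 1.08%, 1.40% and 0.767%. Interior introns had 20320, 13367, 23492 and 22535 peaks, or 23.2%, 22.2%, 25.8% and 21.4%.

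Repeats moved with these shares. Of all peaks, 63.8%, 63.1%, 54.1% and 75.2% were more than 50% repeat-masked in GFP mock and GFP DOX, then Cre mock and Cre DOX, against 2.82%, 2.00%, 2.07% and 4.45% of those over coding exons. Among peaks at most 50% masked, coding exons took 6.63%, 8.17%, 8.82% and 7.32% of the 4 lists in that order, so that Cre DOX was no longer the lowest. The ratios of peak numbers changed little with this restriction, to 1.75 for Cre mock over GFP mock and 0.518 for Cre DOX over Cre mock. The number of reads per library is unknown, and its part in the numbers was not tested.

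Most of a peak lay outside the exon that placed it. The median peak was 332 bp wide in GFP mock and 403.5 bp in GFP DOX, but 434 bp in Cre mock and up to 506 bp in Cre DOX, and CDS made up a median of 38.7%, 33.4%, 30.3% and 25.3% of it. The midpoint lay in CDS for 47.1% (45.0 to 49.2), 42.7% (40.4 to 45.0), 40.1% (38.5 to 41.7) and 34.7% (32.6 to 36.9) of the peaks. Over all lists 83.0% met a single exon of their gene, 4.81% met 3 or more and 12.1% lay inside one exon. The number of exons under a peak reached 13. These peaks are therefore peaks that reach an interior coding exon, and 14.01% of them are less than 10% CDS.

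They were weak to moderate. The median score, which is 10 times the −log10 q-value of the peak caller, was 17, 16, 18 and 16, and the median fold enrichment was 3.42, 3.41, 3.37 and 2.92 in the usual order of the lists. Peaks in the top decile of their list numbered 195, 122, 284 and 83. These were 9.003% (7.83 to 10.3) of coding exon peaks in GFP mock and 6.59% (5.50 to 7.81) in GFP DOX, then 7.54% (6.72 to 8.43) in Cre mock and 4.15% (3.32 to 5.12) in Cre DOX, against 10.4%, 10.5%, 10.7% and 10.7% of all peaks, which with ties in the score hold slightly more than a decile. Cre DOX over GFP DOX was 0.680 among top-decile peaks, the reverse of the ratio for all scores, and Cre DOX over Cre mock was 0.292. Scores are not normalised between libraries, so those of different lists are given as deposited and their sizes are not compared.

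Interior coding exons amount to 22.4 Mb of unique sequence with GC content of 50.7%, against 863.7 Mb of interior intron with 42.2%. Peaks of any kind covered 2.14% of this CDS in GFP mock and 2.55% in GFP DOX, then 4.66% in Cre mock and 2.62% in Cre DOX. Interior intron was covered to 0.930%, 0.836%, 1.47% and 2.09%, and intergenic sequence to 1.47%, 1.205%, 1.56% and 4.19%. Coverage of CDS was thus 2.30, 3.05, 3.17 and 1.25 times that of intron. The smaller ratio of Cre DOX went with a higher coverage of intron and intergenic sequence in that list. CDS coverage in Cre DOX was close to that of GFP DOX.

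**Figure D1:**
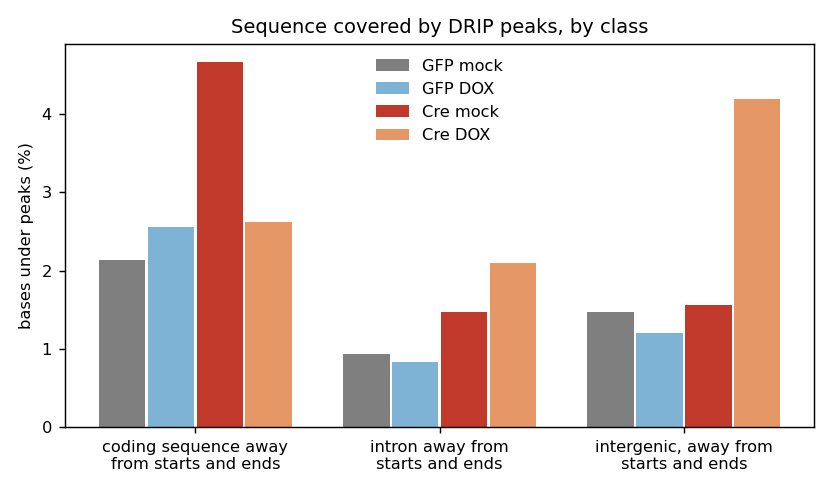
Share of bases under peaks of any score (y axis, in percent) in coding sequence, intron and intergenic sequence, each more than 1 kb from transcript starts and gene ends; each bar is 1 library. Coding sequence reaches 4.66% in Cre mock, and intergenic sequence reaches 4.19% in Cre DOX.

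The excess of coverage over introns was hardly visible around individual exons. The centre of each of 109491 interior coding exons was set beside the points 300 bp outside its edges where both were non-coding and also more than 1 kb from starts and ends. In GFP mock 1.16% (1.099 to 1.23) of exon centres and 1.02% (0.978 to 1.06) of the outside points were under a peak. The values were 1.33% (1.26 to 1.40) and 1.27% (1.22 to 1.32) in GFP DOX, 2.81% (2.71 to 2.91) and 2.57% (2.51 to 2.64) in Cre mock, and 1.55% (1.47 to 1.62) and 1.68% (1.63 to 1.74) in Cre DOX. The ratios of centre to outside were 1.14, 1.05, 1.09 and 0.918. In Cre DOX the exon was thus the less covered position, and in GFP DOX the intervals overlapped. Neighbouring exons share peaks, so these intervals are too narrow.

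The distance to the nearest gene start or end went with larger differences than the exon did. Of exon centres 1 to 2 kb from such a site, 2.30% were under a peak in GFP mock and 2.98% in GFP DOX, then 5.73% in Cre mock and 3.37% in Cre DOX. At 10 kb or more the shares were 0.503%, 0.358%, 1.01% and 0.474%. The points outside the exons fell likewise, from 1.93%, 3.03%, 5.40% and 3.65% to 0.412%, 0.341%, 0.834% and 0.555%.

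The course of coverage was followed over 2000 bp to either side of 67281 exons of 80 to 300 bp that lie more than 3 kb from starts and ends. In GFP mock coverage was 0.971% at the exon centre, 0.944% at 2000 bp upstream and 1.06% at 2000 bp downstream. In Cre mock the centre was at 2.26%, with 1.98% and 2.14% at 500 bp and 2.01% and 2.38% at 2000 bp upstream and downstream. The centre of Cre mock was thus above the upstream side and below the far downstream side. In Cre DOX the centre was lowest, at 1.14%, with 1.32% and 1.42% at 500 bp and 1.58% and 1.82% at 2000 bp upstream and downstream. DRIP fragments are cut by restriction enzymes, and what this does to so fine a comparison was not tested.

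**Figure D2:**
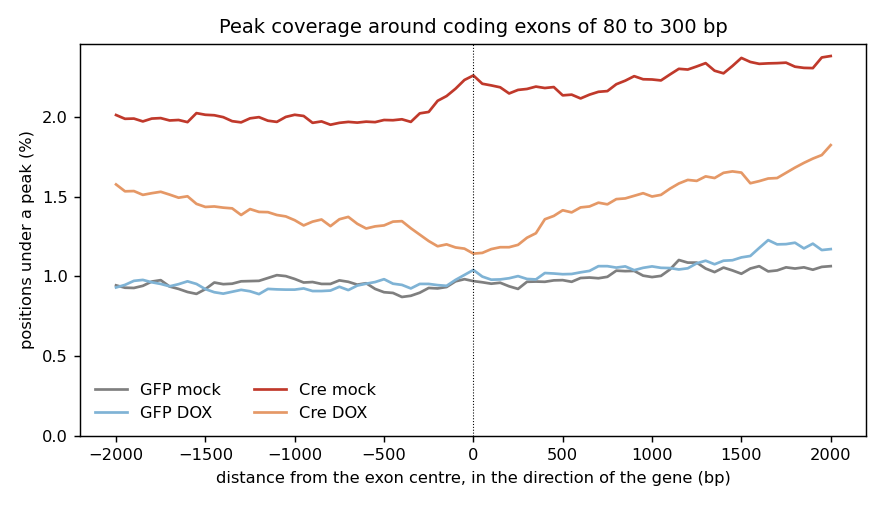
Share of positions under a peak of any score (y axis, in percent) by distance from the centre of coding exons of 80 to 300 bp (x axis, in bp, downstream to the right), over 67281 exons; each line is 1 library. Cre mock is at 2.26% at the centre and 2.38% at 2000 bp downstream, and Cre DOX is lowest at the centre, at 1.14%.

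Among coding exons themselves, long and GC-rich ones were most often under a peak. Of all 130585 interior exons, 1.85% were under such a peak in GFP mock and 1.74% in GFP DOX, then 3.49% in Cre mock and 1.88% in Cre DOX. Among exons shorter than 100 bp the shares were 1.34%, 1.39%, 2.68% and 1.58%, and among the 1167 exons of 1 kb or more they were 12.4%, 10.8%, 17.3% and 9.34%. A longer exon offers more bases to overlap, and the part of target size in this rise was not tested. By GC content the shares went from 0.297%, 0.258%, 0.885% and 0.786% of exons under 40% GC to 6.39%, 5.91%, 9.73% and 4.41% of those at 60% or more. The rise was 21.5-fold in GFP mock and 22.9-fold in GFP DOX, then 11.0-fold in Cre mock and 5.61-fold in Cre DOX. In GC-poor exons both Cre lists exceeded both GFP lists, whereas in the GC-richest class Cre DOX was the lowest of the 4.

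**Figure D3:**
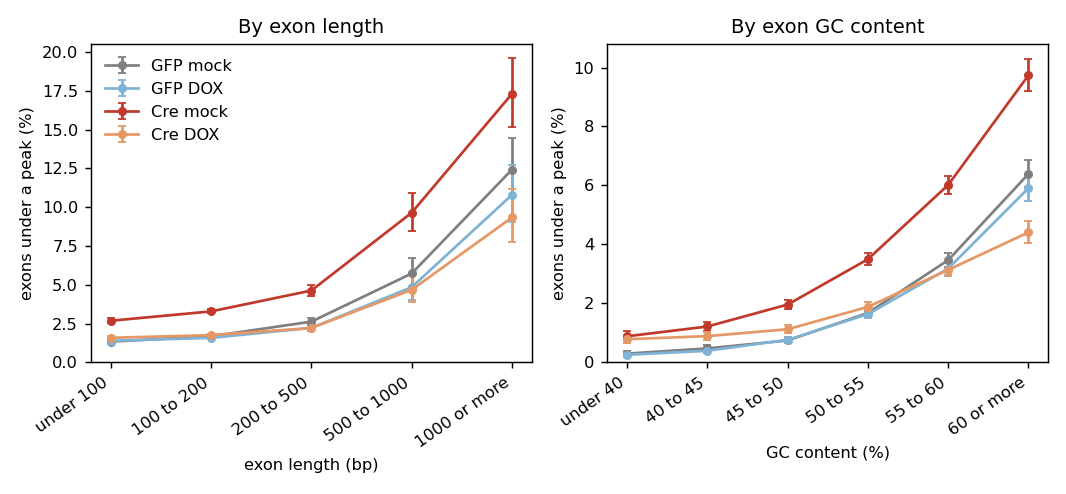
Share of interior coding exons under a peak (y axis, in percent) by exon length in bp (left) and by GC content in percent (right), with exact 95% intervals; each line is 1 library. All lists rise with length and GC content, and Cre mock is highest in every class.

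The 3 longest exons with such peaks in all 4 lists were those of Ahnak, Map1a and Fam186a. The exon of Ahnak, which encodes a giant scaffold protein, spans 16623 bp at chr19:9001699-9018321. Counting peaks of any class that overlapped it, also those within 1 kb of a start or end, it met 4 in GFP mock and 7 in GFP DOX, then 9 in Cre mock and 5 in Cre DOX, with best scores of 20, 22, 43 and 25. The exon of Map1a, a microtubule-associated protein of neurons, spans 8104 bp at chr2:121299269-121307372. Counted in the same way, it met 5, 3, 3 and 3 peaks, with best scores of 21, 24, 22 and 26. The exon of Fam186a spans 7978 bp at chr15:99939798-99947775 and met 2, 1, 1 and 2 peaks, with best scores of 19, 14, 18 and 23. Of these peaks, only the best of Ahnak in Cre mock was in a top decile.

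G4s were predicted in coding exon peaks more often than in intron peaks. A predicted G4 on either strand lay in 42.3% (40.2 to 44.4) of coding exon peaks in GFP mock and 46.1% (43.8 to 48.4) in GFP DOX, then 43.1% (41.5 to 44.7) in Cre mock and 46.3% (44.1 to 48.5) in Cre DOX. The shares in interior intron peaks were 22.6%, 18.01%, 22.3% and 21.5%, and those in peaks within 1 kb of a transcript start were 52.6%, 54.9%, 54.1% and 53.5%. Median GC content was 55.7%, 54.7%, 53.4% and 51.7% in coding exon peaks and 46.9%, 43.9%, 45.7% and 42.7% in intron peaks, and its part in the difference was not tested. In the 200 bp around the peak midpoint the difference between coding exon and intron peaks was smaller, between 6.41 percentage points in Cre mock and 13.9 in GFP DOX, in place of 20.8 and 28.1.

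The displaced strand of an R-loop is the coding strand, so the strand of a predicted G4 was read against the gene. A predicted G4 lay on the coding strand in 24.0%, 27.8%, 25.8% and 28.7% of the peaks and on the template strand in 27.2%, 30.8%, 27.8% and 29.3%, and the intervals of the strands overlapped in every list. Among the peaks with at least 50% CDS, which number 3032 with a region counted once for each list that holds it, the shares were 16.1% and 24.8%. The template strand was ahead in each of the 4 lists in that selection. It led with 23.5% against 14.8% in GFP mock and 26.3% against 19.05% in GFP DOX, then 23.4% against 13.4% in Cre mock and 28.4% against 21.2% in Cre DOX. Among top-decile peaks the template strand led in 3 lists and not in Cre DOX, where 25.3% (16.4 to 36.0) of 83 peaks had a predicted G4 on it and 34.9% (24.8 to 46.2) on the coding strand. The same order holds in exons without such a peak, of which 0.905% had a predicted G4 within the exon on the coding strand and 2.79% on the template strand. Both were more frequent in the 8492 exons under a peak of any list, at 3.89% and 9.50%, and in the 203 exons under peaks in all 4 lists, at 16.7% (11.9 to 22.6) and 25.1% (19.3 to 31.7). Exons under peaks are also longer and richer in GC.

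Few regions were common to the 4 libraries. Of the 7063 regions, 627 (8.88%) met a peak of any score in all 4 lists, and 4336 (61.4%) met one in a single list. Cre mock alone held 2056 of these, GFP mock alone 941, Cre DOX alone 743 and GFP DOX alone 596. Both Cre lists and neither GFP list held 368 regions, both mock lists alone 316 and both DOX lists alone 98. A peak that only just fails the caller's limit in a list counts as absent there. These counts are not given for all peaks merged in the same way, so the low sharing cannot be called particular to coding exons. Between pairs of lists, the share of all peaks that met none ran from 37.5% (GFP DOX in Cre DOX) to 70.3% (Cre DOX in GFP DOX).

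**Figure D4:**
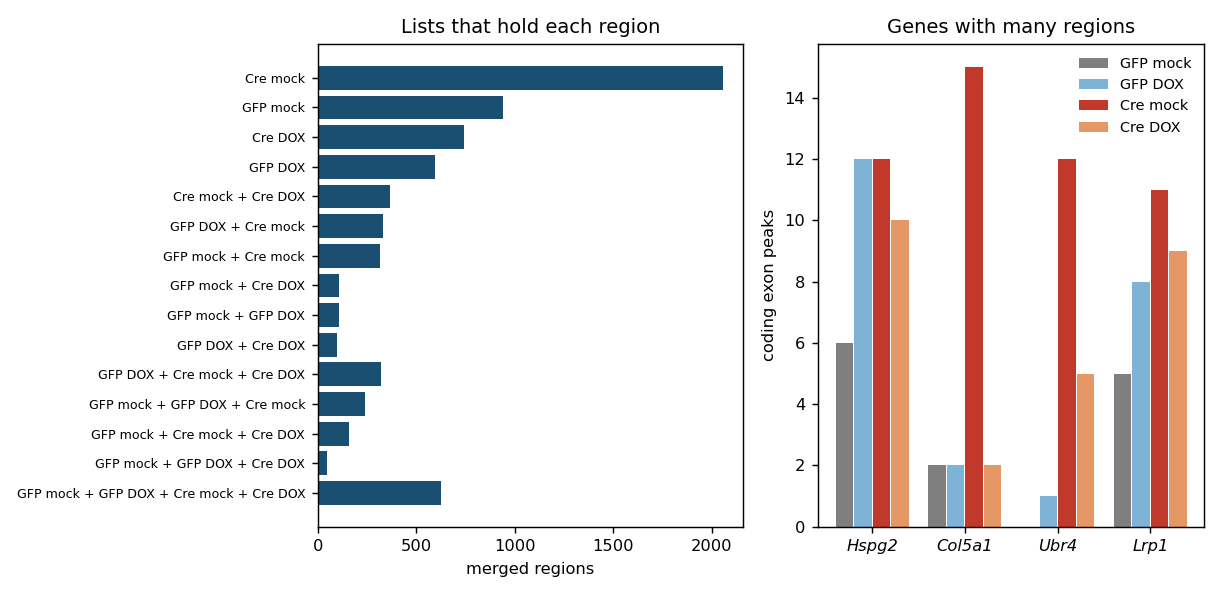
Left, number of merged regions (x axis) by the lists in which they meet a peak of any score; right, number of coding exon peaks (y axis) in each list for 4 of the 6 genes with the most regions. Regions of Cre mock alone are the largest class, with 2056, and 15 of the peaks of Col5a1 are in Cre mock.

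The regions with the best mean score rank in all 4 lists lay in Atg4a, Ispd, Pcsk5, Muc6, Gtf2f1 and Nt5c2. Atg4a encodes a protease of autophagy, and its region (chrX:140994540-140999657) reached over 3 exons and scored 143 in GFP mock and 124 in GFP DOX, then 187 in Cre mock and 188 in Cre DOX. Ispd acts in the glycosylation of dystroglycan, and its region (chr12:36521806-36523376) scored 122, 124, 259 and 167. In both, CDS made up less than 7% of the region, with 6.60% and 5.92%. Pcsk5, a proprotein convertase, scored 89, 133, 106 and 99 at chr19:17509886-17510289. Muc6, a gel-forming mucin of the stomach encoded in part by tandem repeats, scored 71, 112, 105 and 77 at chr7:141636882-141639920, all of it inside an exon of 4329 bp. Gtf2f1, a subunit of the general transcription factor TFIIF, scored 65, 58, 58 and 104 at chr17:57007062-57007850. Nt5c2, a cytosolic nucleotidase, scored 49, 76, 87 and 63 at chr19:46894159-46895145. All 6 were in the top decile of every list.

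Some top-decile peaks were absent from the other 3 lists. Of 195 top-decile coding exon peaks in GFP mock 59 met no peak of another list, as did 17 of 122 in GFP DOX, 95 of 284 in Cre mock and 17 of 83 in Cre DOX. In GFP mock the 4 strongest lay in Grik4, which encodes a kainate receptor subunit (score 97, chr9:42591509-42591628), Plxna4, a semaphorin receptor (57), Tbc1d1, a regulator of Rab GTPases (55), and Ap3b1, a subunit of the AP-3 adaptor (54). They were 116 to 133 bp wide. In Cre mock 3 of the 4 lay in Gtf3c3, a subunit of TFIIIC (60), Nid2, a basement membrane nidogen (58), and Mcrip2 (56), and the 4 were 135 to 277 bp wide. In GFP DOX they lay in Fndc9 (58), Dctn1, a dynactin subunit (47), Mup22, a major urinary protein (42), and Gp5, a platelet glycoprotein (38), with widths of 113 to 138 bp. In Cre DOX they lay in Gpatch3 (43), Tbx21, a T cell transcription factor (38), Paxbp1 (35) and Naca (35), with widths of 213 to 494 bp. Several of these genes are known from tissues other than fibroblasts. The counts of top-decile peaks that met no other list are not given for peaks of all classes. Such absence therefore cannot be called particular to coding exons.

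Among regions of both Cre lists alone, the best ranked lay in Polr1b, a core subunit of RNA polymerase I, at chr2:129109298-129109510, with scores of 84 in Cre mock and 56 in Cre DOX. Cenph, a centromere protein, followed with 57 and 30, Trak2, an adaptor for mitochondrial transport, with 27 and 43, and Iqce with 40 and 25. Those of both mock lists alone lay in Pik3r5, a regulatory subunit of PI3-kinase gamma (chr11:68490576-68490755, 74 in GFP mock and 74 in Cre mock), Uvssa, a factor of transcription-coupled repair (61 and 63), Myh3, the embryonic myosin heavy chain (59 and 48), and Prtg (60 and 47). All 4 were in the top decile of both mock lists. Those of both DOX lists alone lay in Cers5, a ceramide synthase (22 in GFP DOX and 25 in Cre DOX), Srpk1, a kinase of splicing factors (32 and 18), Flg2, filaggrin 2 (17 and 31), and Irf1, an interferon regulatory factor (18 and 25), and none of the 4 was in the top decile of both. The mean percentile of score within their own lists, by which each set of 4 was picked, was 68.7 to 77.9 for both DOX lists. It was 86.3 to 99.1 for both Cre lists and at least 97.3 for both mock lists. Regions met by these pairs of lists alone numbered 98, 368 and 316, so the best of each are not like for like.

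Large matrix and scaffold genes held the most regions. Hspg2, which encodes the basement membrane proteoglycan perlecan, had 20 regions over 12147 bp of interior CDS, with 6 peaks in GFP mock and 12 in GFP DOX, then 12 in Cre mock and 10 in Cre DOX. Col5a1, a fibrillar collagen chain, had 17 regions, with 2, 2, 15 and 2 peaks. Cre mock stood far above the other lists in this gene. Ubr4, a giant ubiquitin ligase, had 16 regions with 0, 1, 12 and 5 peaks, and Lrp1, an endocytic receptor, had 14 with 5, 8, 11 and 9. Cre mock had the most peaks in 3 of these 4 genes and shared the first place with GFP DOX in Hspg2. Per kb of interior CDS, among genes with at least 3 regions, Eif3i, a translation initiation factor subunit, led with 3 regions in 429 bp, followed by Ebna1bp2, Akr1c6 and Gm21969. Rtel1 itself, the gene that Cre deletes, had 0 such peaks in every list over 950 bp of interior CDS. Of peaks anywhere in its body it had 0 in both GFP lists, 2 in Cre mock and 1 in Cre DOX, so these lists do not show the deletion.

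Over all genes, 9.74% of the 17409 with interior CDS had a coding exon peak in GFP mock and 8.08% in GFP DOX, then 15.4% in Cre mock and 9.28% in Cre DOX. In any list it was 24.9%, or 4328 genes, of which most had a single region (2824), and 78 had 6 or more. These genes also had peaks at their ends more often. In GFP mock 53.6% (51.2 to 56.0) of genes with a coding exon peak had a peak at their promoter, against 30.9% (30.2 to 31.7) of the others. The shares were 57.0% and 25.03% in GFP DOX, 65.2% and 34.95% in Cre mock, and 55.5% and 26.4% in Cre DOX. At the gene end they were 20.7% and 8.05%, 29.1% and 8.34%, 33.2% and 13.4%, and 27.04% and 10.4%. Genes with a coding exon peak had more interior CDS, with a median of 1550.5 bp against 829 bp in GFP mock, and the part of this difference was not tested.

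Within the gene the density of peaks over interior CDS varied with position. It was lowest in the first part in both mock lists and in the last part in Cre DOX. In 5 equal parts of the gene body from start to end, Cre mock had 137, 141, 169, 181 and 174 peaks per Mb of interior CDS. GFP mock had 75.9, 94.3, 102, 102 and 93.6, and Cre DOX had 93.2, 93.7, 86.6, 93.7 and 82.8. Chromosomes differed more. In GFP mock there were 202 peaks per Mb of interior CDS on chromosome 15, 193 on chromosome 11 and 151 on chromosome 17, against 27.7 on chromosome X and 41.5 on chromosome 12. Chromosomes 15 and 11 were also the highest in Cre mock, with 290.5 and 273, and in Cre DOX, with 147 and 142. Copy number and gene density were not examined.

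Gene groups were compared per Mb of interior CDS, because the groups differ in gene length. This does not remove length, as peaks per Mb fell with interior CDS in every list. They went from 113, 101, 215 and 132 in genes with under 1 kb to 73.4, 59.9, 133 and 56.6 at 4 kb or more. The part of length in the group values was not tested. All genes together had 96.6 coding exon peaks per Mb in GFP mock and 82.8 in GFP DOX, then 169 in Cre mock and 89.7 in Cre DOX. Over all genes the share with a coding exon peak in at least one list was 24.9%, and genes with more interior CDS offer more bases to overlap. Of 34 chromatin regulators 28 (82.4%) had such a peak, at 129, 155, 294 and 165 peaks per Mb. The highest deposited scores in any list, which were taken without comparing libraries, were in Chd5, a chromatin remodeller of neurons (score 120 in Cre mock, chr4:152373385-152373862), and Kmt2b, a histone H3 lysine methyltransferase (46 in Cre mock). Collagens had peaks in 20 of 44 genes (45.5%), at 163, 134, 298 and 75.9 per Mb, with Col23a1 (53 in GFP mock) and Col7a1 (35 in GFP mock) having the highest scores. Other matrix and adhesion genes of fibroblasts had peaks in 19 of 35 (54.3%), at 127, 178, 210 and 121 per Mb, with Nid2 (58 in Cre mock) and Ltbp4 (34 in GFP DOX) having the highest scores. These 3 groups were above all genes in every list, except collagens in Cre DOX.

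DNA replication and repair genes had peaks in 18 of 30 genes (60%), at 60.8, 86.9, 139 and 130 per Mb, and they were above all genes in GFP DOX and Cre DOX and below them in both mock lists. Their highest scores were in Mcm3, a subunit of the replicative helicase (27 in Cre mock), and Prkdc, the catalytic subunit of DNA-dependent protein kinase (25 in Cre DOX). LDL receptor family, Notch and large cadherin genes had peaks in 12 of 19, at 60.6, 101, 141 and 94.3 per Mb, with a score of 124 in Notch1 (GFP mock, chr2:26460657-26460997) and 86 in Lrp1 (Cre mock). Solute carriers and ABC transporters had peaks in 101 of 369 (27.4%), at 90.3, 68.6, 137 and 74.0 per Mb.

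Chemosensory receptors and clustered protocadherins had peaks in the smallest shares of their genes. Odorant and vomeronasal receptors had peaks in 20 of 354 genes (5.65%), at 40.5, 31.9, 31.9 and 60.8 per Mb, the highest value being that of Cre DOX. Clustered protocadherins, which are encoded in large exons, had peaks in 3 of 54 (5.56%), at 25.9, 0, 13.0 and 0 per Mb, the lowest value of the 13 groups in each list. Voltage-gated ion channels had peaks in 16 of 52, at 104, 58.7, 137 and 45.7 per Mb, with 83 in Cacna1g (GFP mock) as the highest score. Axonemal dyneins and myosin heavy chains had peaks in 12 of 25, at 104, 54.7, 109 and 59.6 per Mb, and giant sarcomere, cytolinker and calcium channel genes in 12 of 20, at 57.8, 52.5, 105 and 34.2 per Mb. ADAM and ADAMTS proteases had peaks in 15 of 52, at 64.8, 37.0, 111 and 64.8 per Mb. The 21 repeat-coding barrier and secreted proteins had peaks in 7 genes, at 40.03, 40.03, 80.1 and 90.1 per Mb, with Muc6 (112 in GFP DOX) having the highest score. The expression of these genes in the cells was not measured here, and no group was tested against the others.

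Loss of coding exon peaks after doxycycline differed between the genotypes. Of GFP mock coding exon peaks 66.2% (64.2 to 68.2) met no peak of any score in GFP DOX, against 69.4% of all GFP mock peaks. Of Cre mock coding exon peaks 74.1% (72.7 to 75.5) met none in Cre DOX, against 51.3% of all Cre mock peaks and 65.2% of those in introns. The excess of 22.8 percentage points in Cre was not found when repeats were left out. Among peaks at most 50% repeat-masked the difference was −0.494 percentage points in Cre and −7.42 in GFP. Among top-decile peaks in both lists the coding exon shares were 89.1% (84.9 to 92.5) in Cre and 74.4% (67.6 to 80.3) in GFP, against 76.2% and 75.3% of all peaks. By width, in classes chosen after the data were seen, GFP mock coding exon peaks under 300 bp were absent from GFP DOX in 76.6% (73.8 to 79.3), against 82.2% of all peaks of that width. From 300 bp to under 600 bp the shares were 69.8% and 69.9%, and at 600 bp or more 35.6% (31.1 to 40.4) and 32.1%, so that the difference in GFP was largest in the narrowest class and turned in the widest. Cre mock coding exon peaks were absent from Cre DOX more often than all peaks in each class, with 88.5% against 67.3%, 82.7% against 51.9% and 50.04% against 21.5%.

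Gain ran the other way. Of Cre DOX coding exon peaks 48.0% (45.8 to 50.2) met no peak in Cre mock, against 63.6% of all Cre DOX peaks. The share was 44.5% within 1 kb of a transcript start and 68.4% in introns. Of GFP DOX coding exon peaks 64.6% (62.4 to 66.8) met none in GFP mock, against 57.0% of all GFP DOX peaks. Here it was 52.5% near starts and 65.3% in introns, so neither difference from all peaks was particular to coding exons. Among top-decile peaks in both lists the GFP DOX shares were 64.8% (55.6 to 73.2) for coding exon peaks and 64.2% for all. The difference in GFP was thus hardly left. Those of Cre DOX against Cre mock were 62.7% (51.3 to 73.0) and 79.8%. Without doxycycline, 76.2% (74.8 to 77.6) of Cre mock coding exon peaks met no peak in GFP mock, against 64.8% of all Cre mock peaks (76.5% against 73.4% among peaks at most 50% repeat-masked), whereas 54.1% (52.0 to 56.2) of those of GFP mock met none in Cre mock, against 61.5%. With doxycycline, 62.6% (60.5 to 64.8) of those of Cre DOX met none in GFP DOX, against 70.3% of all, 75.8% in introns and 57.0% near starts. Among top-decile peaks in both lists it was 78.3% against 81.6%. Of GFP DOX coding exon peaks 62.7% (60.5 to 64.95) met none in Cre DOX, against 37.5% of all, 50.4% in introns and 51.9% near starts. Comparisons that start from a DOX list were not repeated without repeat-masked peaks, and the part of repeats in them was not tested. The lists differ in size, so a share in one direction cannot be set against that in the other.

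Stronger peaks were lost less often. In Cre mock, the share of coding exon peaks absent from Cre DOX fell with the score, from 87.3% (84.8 to 89.4) at scores of 10 to 14 to 60.8% (55.7 to 65.6) at 30 or more. The corresponding shares of all peaks were 67.1% and 43.9%. In GFP mock, the share absent from GFP DOX went from 78.5% to 51.0% in coding exon peaks and from 81.0% to 53.2% in all peaks. Coding exon peaks were above all peaks in each of the 4 score classes in Cre and below them in each in GFP, where the intervals overlapped in the lowest and the highest class. These classes include repeat-masked peaks, without which the Cre difference over all scores was the −0.494 percentage points given above.

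**Figure D5:**
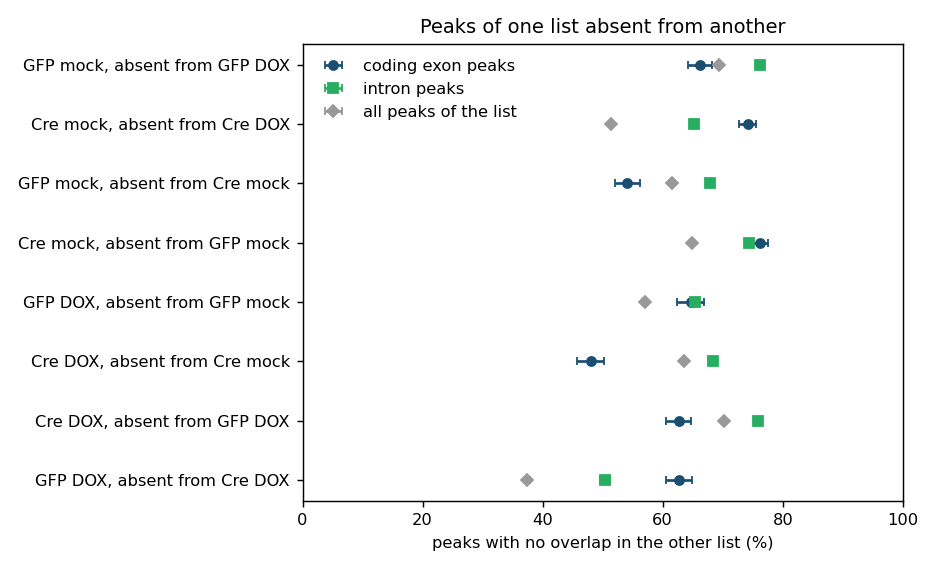
Share of the peaks of one list that overlap no peak of any score in another (x axis, in percent) for coding exon peaks, intron peaks and all peaks, with exact 95% intervals, in 8 comparisons of 2 libraries (y axis). Coding exon peaks of Cre mock are absent from Cre DOX in 74.1%, and all peaks of Cre mock in 51.3%.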

How the data were processed

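DRIP-seq peak lists of 4 libraries were used, 1 for each virus (GFP, Cre) and treatment (mock, DOX), grouped as their labels state; the 4 input libraries were not analysed here. The authors cut DNA with a mix of restriction enzymes (XbaI, SspI, BsrGI, HindIII, EcoRI), captured hybrids with S9.6, pooled the parallel immunoprecipitations of each condition into 1 library, aligned the reads to mm10 with BWA within nf-core/chipseq and called peaks with MACS2. The deposited lists are broad peaks, although the command given in the methods names narrow peaks, and which setting gave their widths and numbers is not settled here. The MACS2 version and the use of the inputs as control are not given in the sources used here. Each deposited peak has a score (10 times the −log10 q-value, not normalised between libraries), a fold enrichment, which is the ratio of its signal to the local background, and a −log10 q-value. Read depth is not in the lists, so precision is limited by 1 library per group.

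Genes came from GENCODE M21 and sequence, whose lower-case bases count as repeat-masked, from GRCm38.p6. Positions are counted from 1. An overlap of 1 bp made peaks of 2 lists shared. Peaks of 2 or more lists that overlapped were merged into regions. The top decile held scores at or above the 90th percentile of a list. Predicted G4s were windows of 25 bases with an absolute G4Hunter score of at least 1.5. Overlap and G4 code was tested on simulated data. Regions were named by score rank: the 6 best in all 4 lists, the 4 strongest top-decile peaks of each list alone, the 4 best of both Cre, both mock or both DOX lists alone, the genes with most regions, the 2 strongest per gene group and the 3 longest exons. A few regions and genes that these rules name are not reported here. The members and the 13 gene groups were chosen with earlier results of these data known. Work was done with Python 3.11.15, numpy 2.4.6, pandas 2.3.3 and scipy 1.17.1. Alternatives were the score, the q-value, the distance, the overlap with CDS, the share of repeats, the transcript set and the G4 definition.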

Additional observations from a re-analysis of the deposited data

Results flagged for a closer look

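Doxycycline went with opposite directions in the 2 genotypes for the share of interior CDS under peaks, which was 1.19 times the mock value in GFP cells and 0.563 times the mock value in Cre cells. The share of the list that lay over interior coding exons was likewise 1.24 times the mock value with GFP virus but 0.460 times with Cre virus. Rtel1 deletion went with opposite directions by treatment for this share, which in Cre was 1.67 times the GFP value without doxycycline and 0.619 times with it. Among peaks at most 50% repeat-masked these shares lay closer together in Cre, at 8.82% without doxycycline and 7.32% with it, against 6.63% and 8.17% in GFP, and the directions were the same. Among top-decile peaks the GFP direction turned, as the share was 2.13% without doxycycline and 1.93% with it, against 2.91% and 0.735% in Cre. Peaks at gene starts and gene ends had the same opposite directions over all scores, with 12.8% and 15.3% in GFP and 15.9% and 10.04% in Cre for those within 1 kb of a transcript start, and 1.64% and 2.38%, then 2.69% and 1.71%, for those at gene ends. The number of top-decile peaks over interior coding exons was 1.46 times the GFP value without doxycycline and 0.680 times with it. Each ratio compares 1 library with 1 library, and none of these differences was tested.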

How the results depend on the processing

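No paired analysis was possible because each group had 1 library, and leaving out a replicate was not possible for the same reason. The share of each list over interior coding exons is given below in the order of GFP mock and GFP DOX, then Cre mock and Cre DOX. It was 2.13%, 1.93%, 2.91% and 0.735% among top-decile peaks, 2.16%, 2.53%, 3.64% and 1.22% with −log10 q-values from 2 upwards, and 1.67%, 1.95%, 2.84% and 1.28% beyond 2 kb. It was 1.16%, 1.31%, 1.66% and 0.660% with the midpoint in CDS, 0.971%, 1.05%, 1.22% and 0.423% with at least 50% CDS, and 6.63%, 8.17%, 8.82% and 7.32% with at most 50% masked. With CDS of basic transcripts it stayed within the intervals. The number in Cre DOX over Cre mock was 0.292 in the top decile and 0.350 at the q-value limit. Cre DOX over GFP DOX turned from above to below 1 in the top decile (0.680), by midpoint (0.877) and with at least 50% CDS (0.704). The other 23 ratios of numbers kept their direction within 1.5 times.

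The excess of coding exon peaks over all peaks absent from the other list, in percentage points, moved as follows. For GFP mock against GFP DOX it was −0.920 for top-decile peaks in both lists and −7.42 with at most 50% masked. For Cre mock against Cre DOX it was 12.9 for top-decile peaks in both lists, 19.2 for top-decile peaks against any score, 25.7 with at least 50% of the peak covered, 27.3 by midpoint and −0.494, the only reversal, with at most 50% masked. For GFP mock against Cre mock it was −4.26 and −2.43 in the 2 top-decile settings. For Cre mock against GFP mock it was 8.02 and 13.6 in those settings and 3.10 with at most 50% masked. The cause was not tested.

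The excess of predicted G4s over intron peaks kept its direction in every setting, again in the order of the lists. It was 6.17, 10.9, 6.78 and 7.70 percentage points at a G4Hunter score of at least 2, 8.04, 10.7, 8.51 and 8.43 with the regular expression, and 10.8, 13.9, 6.41 and 11.6 in 200 bp around the midpoint. It was 9.11, 24.4, 16.3 and 18.8 in the top decile and 15.3, 18.95, 16.4 and 17.3 with at most 50% masked.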
